A study of Mus musculus with 4 samples.

Results

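The cytochrome P450 genes were described here by their level of H3K27me3, the histone mark of Polycomb repression (lysine 27 of histone H3 trimethylated), in female mouse embryonic fibroblasts with and without SmcHD1. The members were all genes outside the X chromosome whose symbol followed the P450 pattern of family number, subfamily letter and gene number, such as Cyp2c55. The pattern matched 102 of the 22691 genes listed, in 38 subfamilies on 14 chromosomes, and left out Cyp51 and Cyp2ab1. Both genotypes had a value for 98 of the 102.

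The fibroblasts came from female C57BL6/J fetuses at stage E13.5. They were either Smchd1 +/+ (WT) or Smchd1 MD1/MD1 (MD1), and the series describes the MD1 cells as lacking SmcHD1, a noncanonical SMC protein known for its part in X inactivation. Each genotype had 1 ChIP library, made with the H3K27me3 antibody CMA323, and 1 input library made without antibody. With 1 library of each kind there was no replicate error and no test, so every difference below compares 2 values of these libraries and carries no p-value. How many fetuses were pooled in a library is not given in the sources used here. Whether a lower value means fewer cells or alleles with the mark, or less mark on each, cannot be told apart.

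P450 enzymes are heme proteins that insert oxygen into small lipophilic molecules. Families CYP1 to CYP3 mainly clear foreign compounds in liver, lung and gut, and CYP2 and CYP3 have multiplied into tandem arrays in rodents. CYP4 genes, of fatty acid hydroxylases, also form arrays. Families that make or break down steroids, bile acids, vitamin D and retinoic acid mostly exist as single genes. Most P450 genes are silent in fibroblasts. H3K27me3 is laid down by Polycomb repressive complex 2, which is known to favour CpG-rich promoters of silent developmental genes.

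Values are log2 enrichments per gene, as deposited, with the form of a ratio of 2 read counts over the gene. The length of a gene then enters both terms, so levels were compared between genes on this scale. The difference is the MD1 value minus the WT value, and a call means a difference of at least 1 on the log2 scale, which is 2-fold. Over 19836 autosomal genes the values had a median of -0.78 in WT and of -0.90 in MD1, and their differences one of -0.27. Differences were therefore also read after centring on that median. Differences here called level-matched had the median difference of 500 autosomal genes subtracted, those nearest in mean level within the same quartile of gene length. Length was not matched more closely than that. Of 15 fibroblast marker genes none had a WT value above 0 (median -2.73), whereas all 7 hepatocyte markers with values did (median 0.97). The depth of the libraries is unknown. Where the ratio behind a value could be recovered it is given in lowest terms, as ChIP over denominator, and small numbers there mean that few reads may stand behind the value.

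P450 genes sat somewhat above the autosomal median in both genotypes and differed little between them. Their median value was -0.12 in WT, with quartiles of -0.61 and 0.59, and -0.13 in MD1, with quartiles of -0.57 and 0.45. The median member stood at percentile 62.0 of autosomal genes in WT and 63.5 in MD1. WT values above 0 were found at 42 of the 98 (42.9%), against 35.6% of autosomal genes, and MD1 values above 0 at 40, against 34.2%. In WT, 6 of the 98 members lay above the 95th autosomal percentile, about the share of all autosomal genes, and 1, Cyp20a1, lay below the 25th.

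The median difference over the 98 members was -0.01, with 51 below 0 (52.0%, against 69% of autosomal genes) and 47 above, and after centring it was 0.26. Only Cyp8b1 and Cyp2d12 were at least 2-fold lower in MD1, which is 2.04% of the members against 20.4% of autosomal genes. Only Cyp26a1 was at least 2-fold higher, which is 1.02% against 1.61%. The share of calls moves with level. Among 4782 autosomal genes with a WT value between the quartiles of the members, 2.61% were at least 2-fold lower and 1.61% higher. After centring, 1 member was lower and 7 were higher, against 13.3% and 3.22% of autosomal genes. Level-matched, 2 members were lower and none was higher, against 3.41% and 3.16%. A difference smaller than 0.5 either way was seen at 74 members (75.5%), compared with 55.3% of autosomal genes of all levels. The level-matched difference of 64 of the 98 members was within 1 standard deviation of the differences among their matched autosomal genes. For 10 members it was beyond 2 standard deviations. Whether members differed less between genotypes than genes of like level was not tested.

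**Figure D1:**
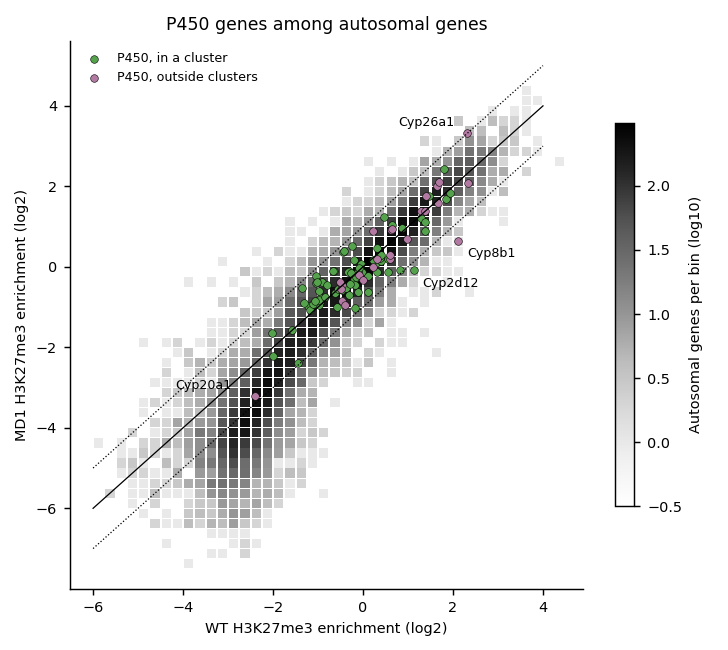
WT (x axis) against MD1 (y axis) H3K27me3 enrichment, both log2, for the 98 P450 genes over the density of autosomal genes (grey bins of 0.25, log10 colour scale). The solid line marks equal values and the dotted lines 2-fold differences: Cyp26a1 reaches the upper dotted line, Cyp8b1 and Cyp2d12 lie below the lower one, and Cyp20a1 is the lowest member in both genotypes.

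Members inside and outside genomic clusters differed in median level, with wide overlap. By joining members no more than 1 Mb apart, 76 of the 102 fell into 8 genomic clusters of at least 3 members, and 26 lay outside. The 25 members outside clusters with both values had a WT median of 0.60, and 18 of them were above 0. The 73 in clusters had a WT median of -0.20, and 24 were above 0. One of the 8 clusters holds Cyp1a1, Cyp1a2 and Cyp11a1, genes of 2 families that happen to be neighbours. Without it the median of the clustered members was -0.26. WT values ran from -2.03 to 1.93 inside clusters and from -2.40 to 2.33 outside, and the Cyp2d and Cyp4f clusters had positive medians. Clustered members were also longer, with a median of 22433 bp against 12810 bp, and longer members had lower WT values (Spearman's rho -0.52 over 98 members). The part of length in the gap was not tested. The MD1 medians were 0.65 outside clusters and -0.18 inside, so the gap between both groups was of the same size in MD1.

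The retinoic acid hydroxylases carried the mark strongly in both genotypes. Cyp26a1, Cyp26b1 and Cyp26c1 encode the enzymes that break down retinoic acid, the vitamin A derivative that patterns the embryo. Cyp26a1 (mm9 chr19:37772298-37776026, plus strand) had a value of 2.31 in WT and 3.32 in MD1. The difference of 1.01, or 2.02-fold, was the highest of all 98 members. Its MD1 value was higher than that of 99.9% of autosomal genes, from a ratio of 245 to 24, and its WT ratio was 259 to 54. Level-matched, the difference was 0.92, against a standard deviation (SD) of 0.55 among the 500 like genes, so it no longer reached 2-fold. Its neighbour Cyp26c1 (mm9 chr19:37760170-37767797, plus strand) was level, with 1.67 in WT and 1.58 in MD1. Cyp26b1, on chromosome 6, had 1.39 in WT and 1.75 in MD1. The neighbours Cyp26c1 and Cyp26a1 thus differed in opposite directions as deposited and level-matched (-0.18 and 0.92), but both differences were positive after centring (0.19 and 1.29).

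The promoter of Cyp26a1 is shown because it belongs to the member with the highest difference and holds a direct repeat of the kind that retinoic acid receptors are known to bind. The letters searched, on both strands, were AGNTCA followed after 5 bases of any kind by AGNTCA again. Of 27025 genes with a RefSeq promoter window (250 bases before to 50 after the start, GRCm38.p6), 64 genes (0.237%) held a match. Of 75 members with a window, 2 did, Cyp26a1 and Cyp2c50. The match in Cyp26a1, on the minus strand and in capitals, ends 15 bases before the end of the 250 bases printed, which run up to the start (GRCm38.p6 chr19:37697558-37697807, plus strand). A match describes the letters only.
Cyp26a1: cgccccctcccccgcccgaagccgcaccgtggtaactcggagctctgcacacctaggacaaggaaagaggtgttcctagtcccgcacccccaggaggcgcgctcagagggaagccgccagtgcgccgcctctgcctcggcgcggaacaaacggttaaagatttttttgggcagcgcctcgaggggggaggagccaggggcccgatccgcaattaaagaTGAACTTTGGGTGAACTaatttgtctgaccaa

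Cyp2c50, the other member with a match, had -0.26 in WT and -0.15 in MD1. The 12 other retinoic acid pathway genes listed were mixed. Their medians were -0.15 in WT and 0.14 in MD1. A 2-fold lower MD1 value was seen at 2 of them and a 2-fold higher one at 1, against 20.4% and 1.61% of autosomal genes. The lower ones were the receptor genes Rarg, from -1.37 to -3.08, and Rara, from -2.44 to -3.68. The MD1 ratio of Rarg was 4 to 33, and level-matched the differences were -1.06 and -0.08. The higher one was Crabp1, which encodes a retinoic acid binding protein, from -1.10 to 0.58. Stra6, encoding the retinol transporter, and Aldh1a2, encoding the main retinoic acid synthesising enzyme of the embryo, were well marked in both genotypes, at 1.84 and 2.29 and at 1.35 and 1.30.

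Of the 3 vitamin D genes, 2 were well marked. Cyp24a1, which inactivates vitamin D hormone, had the highest WT value of all members (2.33), and 2.09 in MD1. It is the 1 member whose interval overlaps another listed gene. Cyp27b1, which makes the hormone, had 1.63 and 2.02. Cyp2r1, a broadly expressed vitamin D 25-hydroxylase, was lower than both, with -0.48 and -0.56. The gene of the vitamin D receptor, Vdr, had 0.17 in WT and 0.75 in MD1. None of these differences reached 2-fold.

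In the CYP1 family, whose genes are induced through the aryl hydrocarbon receptor, the tandem pair had far higher values than the single gene. Cyp1a1 had 1.85 in WT and 1.68 in MD1, and Cyp1a2, next to it in the opposite orientation, 1.80 and 2.44. The Cyp1a2 difference of 0.64 rested on an MD1 ratio of 61 to 11, against a level-matched SD of 0.53. Cyp1b1, the CYP1 gene known to be active in embryonic fibroblasts, had -0.08 and -0.19, at percentiles 62.7 and 62.2 of autosomal genes, which is the level of the median P450 member. Its WT ratio was 11 to 12. The receptor gene Ahr went from 0.22 to -0.90, a difference of -1.11, and its repressor gene Ahrr from 0.27 to -0.42. The partner gene Arnt, from -2.60 to -3.68, was also called lower, but level-matched its difference was 0.08, whereas that of Ahr was -1.02. The receptor's core motif GCGTG, searched on both strands, was present in the windows of Cyp1a1 and Cyp1b1 and not in the letters of that of Cyp1a2. It was found in 15 of 75 members (20%) and in 35.2% of all genes with a window.

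Steroid hormone genes all had positive values. Cyp11a1, the side-chain cleavage enzyme that begins steroid synthesis, had 1.93 in WT and 1.85 in MD1. Cyp17a1, which directs steroids towards androgens, had 1.68 and 2.11. Aromatase, Cyp19a1, had 0.60 and 0.30. The adrenal genes Cyp11b1 and Cyp11b2, a tandem pair, had 0.23 and 0.65 in WT and 0.89 and 0.94 in MD1. Cyp21a1 had a value in WT alone, 0.98, from a ratio of 23 to 12. The list's median difference over the 5 genes with both values was 0.29. Nr5a1, encoding the master regulator of steroidogenic genes, stood high in both genotypes, at 2.25 and 2.54.

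Among the genes of bile acid and cholesterol breakdown, 1 stood apart. Cyp8b1 (mm9 chr9:121823474-121825423, minus strand), the sterol 12-alpha-hydroxylase that sets the proportion of cholic acid, went from 2.12 in WT to 0.65 in MD1. This difference of -1.47, or 2.77-fold, was the lowest of all members. It was -1.20 after centring and -1.59 level-matched, against an SD of 0.54. The gene is short, at 1950 bp, and its ratios were 59 to 14 in WT and 8 to 5 in MD1, so few reads may stand behind the MD1 value. After adding 1 to each linear ratio the difference was -1.06. The other 5 members of the list were within 0.3 either way. Cyp7a1, the rate-limiting enzyme of bile acid synthesis, had 0.21 and 0.01, and Cyp27a1, of the alternative pathway, 0.61 and 0.91. Cyp7b1 had -0.47 and -0.46 and Cyp39a1 -0.52 and -0.36. Cyp46a1, the brain cholesterol 24-hydroxylase, had 1.38 in both.

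**Figure D2:**
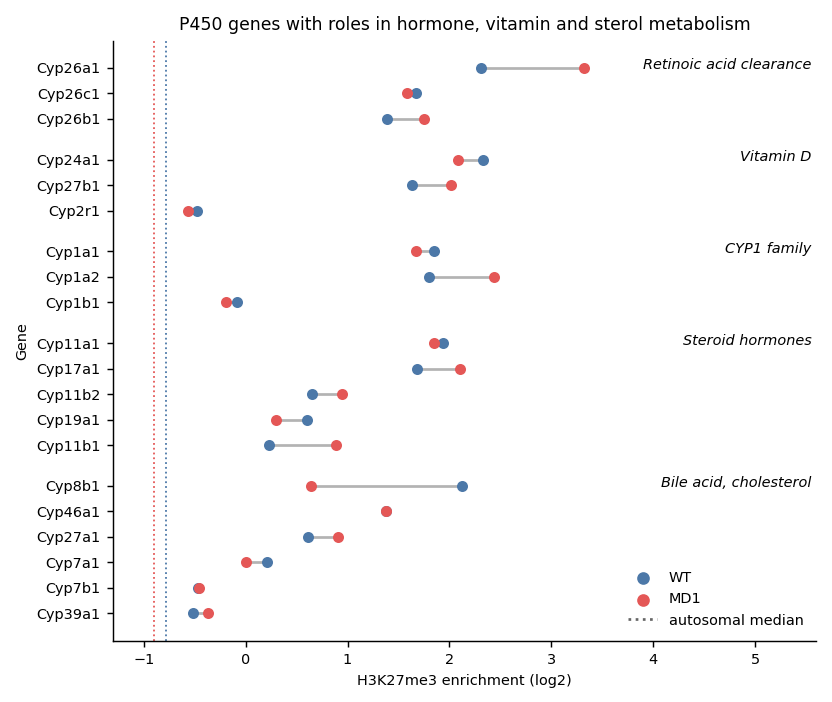
WT (blue) and MD1 (red) H3K27me3 enrichment (x axis, log2) for 20 genes with known roles in hormone, vitamin and sterol metabolism, grouped by role, 1 library pair per genotype. Dotted lines are the autosomal medians, -0.78 and -0.90; every gene lies to their right, and the widest gaps are at Cyp8b1 (-1.47) and Cyp26a1 (1.01).

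The promoters of P450 genes were poor in CpG for the most part, and genes with CpG-rich promoters stood at widely different levels. Among 72 members with a window and both values the median was 3 CpG per window, and 10 (13.9%) had 8 or more, against 70.2% of 14749 autosomal genes. Genes with several starts were taken at the window richest in CpG. Of those 10, 8 lay outside clusters. Their WT values spanned nearly the whole range of the members, from -2.40 to 2.31. Cyp26a1, with 26 CpG, and Cyp46a1, with 31, were high, Cyp2r1, with 22, was near the middle (-0.48), and Cyp20a1, with 20, was low. Across the 72 members, which share libraries and in part neighbourhoods, Spearman's rho between CpG number and WT value was 0.30. It was 0.18 over the 56 in clusters and -0.17 over the 16 outside, and across autosomal genes it was -0.41. Between gene length and WT value, rho was -0.06 across autosomal genes, against the -0.52 given above for the members.

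The promoters of Cyp46a1 (GRCm38.p6 chr12:108334066-108334315, plus strand) and Cyp20a1 (GRCm38.p6 chr1:60343050-60343299, plus strand) are shown as CpG-rich promoters of genes at opposite levels. In both, capitals mark the CpG dinucleotides in the 250 bases before the start, of which there are 23 and 15. Cyp20a1, a broadly expressed P450 with no assigned substrate, had -2.40 in WT and -3.21 in MD1. Its difference of -0.80 turned to 0.22 when level-matched.
Cyp46a1: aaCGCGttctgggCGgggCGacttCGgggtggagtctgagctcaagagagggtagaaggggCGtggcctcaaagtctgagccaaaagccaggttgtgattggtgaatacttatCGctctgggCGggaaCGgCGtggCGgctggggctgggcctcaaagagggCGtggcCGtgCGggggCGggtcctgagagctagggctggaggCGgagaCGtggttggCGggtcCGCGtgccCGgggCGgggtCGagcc
Cyp20a1: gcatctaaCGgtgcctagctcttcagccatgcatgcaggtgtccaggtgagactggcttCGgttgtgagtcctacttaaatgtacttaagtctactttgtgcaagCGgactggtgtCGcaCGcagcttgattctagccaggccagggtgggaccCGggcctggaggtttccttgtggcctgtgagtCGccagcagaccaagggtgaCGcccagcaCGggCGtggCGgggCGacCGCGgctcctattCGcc

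**Figure D3:**
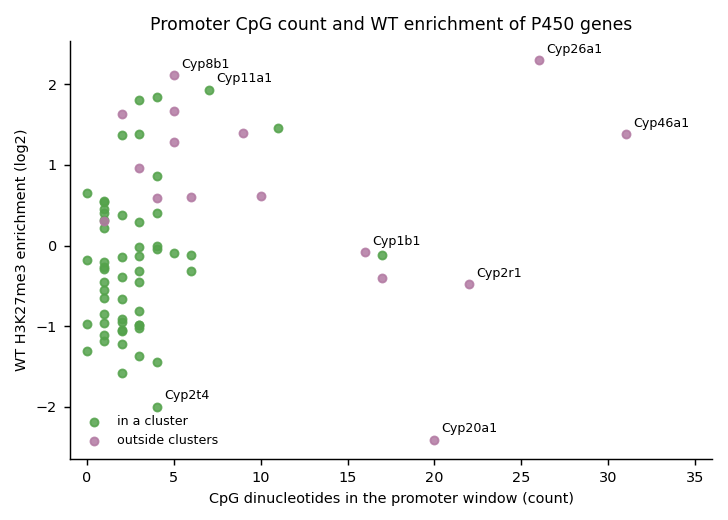
Number of CpG dinucleotides in the 300 bases of the promoter window (x axis) against WT H3K27me3 enrichment (y axis, log2) for 72 P450 genes in clusters (green) or outside (purple). Genes with few CpG span values from -2.0 (Cyp2t4) to 2.12 (Cyp8b1), and genes with 16 or more CpG lie anywhere from -2.40 (Cyp20a1) to 2.31 (Cyp26a1).

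Neighbours in a cluster were closer in value than members of different clusters. Members next to each other in a cluster differed in WT value by a median of 0.31 over 63 pairs, against 0.87 over 2282 pairs from different clusters. For the difference between genotypes the gaps were 0.30 and 0.42. Non-adjacent pairs of a cluster were not measured, so likeness of neighbours cannot be told apart from differences in level between clusters. Some neighbours lay far apart in WT, such as Cyp4f39 (1.46) and Cyp4f17 (-2.03). Members of an array are similar in sequence. How reads that match several copies were counted is not given in the sources used here, and their part in the likeness was not tested.

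The Cyp2a-Cyp2b cluster (mm9 chr7:26587495-27943583), whose genes include phenobarbital-inducible liver enzymes and nasal and lung enzymes, had higher values in MD1. Of its 12 genes with both values, 10 had a positive difference, and all 12 did after centring or level matching. The median went from -0.46 in WT to -0.12 in MD1, with a median difference of 0.28 (0.55 centred). No gene reached 2-fold as deposited. The largest differences were at Cyp2b9, from -1.37 to -0.54, and Cyp2b13, from -1.06 to -0.23, both 0.83, or 1.78- and 1.77-fold. Their ratios were 79 to 210 and 85 to 182 in WT and 146 to 207 and 177 to 203 in MD1. Level-matched, they were 0.97 and 0.93, against SDs of 0.40 and 0.37. Cyp2g1, an olfactory enzyme, went from -0.26 to 0.52 and Cyp2b23 from -0.67 to -0.11. Cyp2b10, the classic phenobarbital-induced gene, had 0.86 and 0.96, and Cyp2b19, an epidermal gene, 0.32 and 0.47. Among the Cyp2a genes, Cyp2a4 had -1.11 and -0.92, Cyp2a22 -0.98 and -0.83, and Cyp2a12 -0.20 and 0.16. Cyp2a5, the coumarin hydroxylase gene, had a value in WT alone, -0.14, from a ratio of 15 to 17. Cyp2f2, a lung club cell enzyme, was the highest of the cluster in MD1, at 0.65 and 1.03. At the far ends, Cyp2s1 had -0.12 in both and Cyp2t4 -2.0 and -2.22. The 3 non-P450 genes with values inside the cluster, Nlrp9c (-1.49 and -0.66), Nlrp4a (-1.01 and -0.69) and Nlrp9a (-0.88 and -0.41), were also higher in MD1. The 8 nearest genes outside had a median of -2.41 in WT and -3.92 in MD1, and 7 of them were lower in MD1. Values of flanking genes and of non-P450 genes inside clusters, here and below, are as deposited and not level-matched.

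The promoters of Cyp2b9 (GRCm38.p6 chr7:26173159-26173408, plus strand) and Cyp2b13 (GRCm38.p6 chr7:26061245-26061494, plus strand) are shown as those of the neighbours that differed alike. Over the 250 bases before the start they differ at 2 positions, in capitals.
Cyp2b9: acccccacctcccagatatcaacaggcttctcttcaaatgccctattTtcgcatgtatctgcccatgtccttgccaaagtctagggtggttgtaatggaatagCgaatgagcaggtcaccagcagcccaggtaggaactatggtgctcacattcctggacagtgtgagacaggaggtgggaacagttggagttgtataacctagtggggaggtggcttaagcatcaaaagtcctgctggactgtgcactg
Cyp2b13: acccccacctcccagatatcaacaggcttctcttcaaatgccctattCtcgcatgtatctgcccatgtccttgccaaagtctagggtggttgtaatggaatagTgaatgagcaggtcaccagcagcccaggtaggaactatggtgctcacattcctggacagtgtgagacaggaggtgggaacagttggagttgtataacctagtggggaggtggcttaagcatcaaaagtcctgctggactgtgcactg

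In the Cyp2c cluster (mm9 chr19:39081509-40261776), which encodes drug and arachidonic acid oxidising enzymes, a central stretch was low in WT and less so in MD1. The 8 genes from Cyp2c53-ps to Cyp2c69 lay between -1.31 and -0.81 in WT, all below the 7 genes on either side, which lay between -0.55 and 0.40. The central median was -1.0 in WT and -0.52 in MD1, and the outer median was -0.26 in both genotypes. All 8 central differences were positive, from 0.10 at Cyp2c67 to 0.64 at Cyp2c40, with a median of 0.40 (0.61 level-matched). The outer differences ran from -0.27 at Cyp2c55 to 0.21 at Cyp2c54, with a median of -0.11. The stretch was picked after its values were seen. Cyp2c38 had the lowest WT value of the cluster, -1.31, and -0.91 in MD1, and Cyp2c70, at the end of the cluster, the highest, 0.40 and 0.29. Over the whole cluster 11 of 15 differences were positive and the median was 0.20 (0.47 centred). The 8 flanking genes were all lower in MD1, from a median of -1.52 to -2.34.

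The Cyp3a cluster (mm9 chr5:146106139-146924859), of the main drug-metabolising enzymes of liver and gut, was uniform. Its 6 genes with values lay between -1.22 and -0.65 in WT and between -1.07 and -0.11 in MD1. All 6 differences were positive, from 0.03 at Cyp3a59 to 0.54 at Cyp3a57, with a median of 0.15 (0.42 centred). Cyp3a57 went from -0.65 to -0.11, with ratios of 249 to 403 and 430 to 453. Cyp3a11, the major hepatic member, had -1.22 and -0.97. Cyp3a41a and Cyp3a41b, which are near-identical copies, had no value in either genotype although each spans over 26 kb. Cyp3a13, far from the cluster, stood higher, at 0.31 and 0.19. The 8 flanking genes went from a median of -2.02 to -3.08.

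The Cyp2d cluster (mm9 chr15:82200957-82624675), related to the human debrisoquine hydroxylase gene, split by position. Its first 2 genes, set apart after their values were seen, were higher in MD1. Cyp2d22 went from -0.42 to 0.40 and Cyp2d11 from 0.46 to 1.24, differences of 0.83 and 0.78. Of the next 8, 7 were lower as deposited and level-matched, but 4 after centring. Cyp2d12 went from 1.13 to -0.09, the second lowest difference of all members (-1.21), and Cyp2d34 from 0.83 to -0.08. Cyp2d26, at the far end, went from 0.55 to -0.13. MD1 values of these 8 genes lay close together, between -0.13 and 0.16, whereas WT values ran from -0.08 to 1.13. The genes are short, about 4 to 5 kb apart from Cyp2d22 and the pseudogene, and the ratios were small, such as 36 to 17 in WT and 26 to 27 in MD1 for Cyp2d12. The level-matched SDs were 0.66 for Cyp2d12 and 0.40 for Cyp2d22. The cluster's median difference of -0.23 turned to 0.04 after centring and was -0.19 level-matched. Only Cyp2d10 (-0.20) and Cyp2d34 (-0.91) had denominators of at least 20 in both genotypes, and the median over them was -0.55.

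The Cyp2j cluster (mm9 chr4:95709351-96330810), of arachidonic acid epoxygenases, had 6 of 7 differences below 0 and a median of -0.18, which turned to 0.10 after centring. Cyp2j6 stood apart from its neighbours. It went from -1.44 in WT to -2.38 in MD1, with ratios of 151 to 423 and 29 to 148, a difference of -0.94 that was -0.42 level-matched. The genes beside it, Cyp2j8 (-0.46 and -0.58) and Cyp2j9 (-0.12 and -0.63), were nearer 0. The highest members were Cyp2j12 (-0.01 and -0.18) and Cyp2j13 (-0.04 and 0.06).

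Of the CYP2 genes outside clusters, Cyp2w1 was the most marked, at 1.28 in WT and 1.39 in MD1. Cyp2e1, the ethanol-inducible liver enzyme, had 0.60 and 0.19, and Cyp2c44, away from the other Cyp2c genes, 0.01 and -0.33. Cyp2u1, a broadly expressed fatty acid hydroxylase, had -0.47 and -0.85. Over the 48 CYP2 genes with values other than Cyp2r1, which is listed with vitamin D, the median difference was 0.08 (0.35 centred). Of these, 1 gene, Cyp2d12, was at least 2-fold lower and none higher, against 20.4% and 1.61% of autosomal genes.

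The CYP4 genes encode fatty acid omega-hydroxylases and form 2 clusters. In the one with Cyp4a, Cyp4b and Cyp4x genes (mm9 chr4:114781287-115320310), 10 of 11 differences were below 0, with a median of -0.13 that turned to 0.15 after centring. The exception was Cyp4a29, from -0.45 to 0.38, a difference of 0.83 with ratios of 61 to 86 and 121 to 91. Cyp4x1, at one end, was the most marked, at 1.28 and 1.22, and Cyp4a12a the least in WT, at -0.62, with -0.65 in MD1. Cyp4a10, a PPAR-alpha target in liver, went from 0.10 to -0.63. The lowest difference, -0.85, was at the pseudogene Cyp4b1-ps2, 1090 bp long, with ratios of 6 to 7 and 1 to 2. The receptor gene Ppara itself had 1.13 and 1.53.

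The Cyp4f cluster (mm9 chr17:32589668-33102661) was the most uneven, with an SD of WT values of 1.27 over 9 genes. Cyp4f39, an epidermal enzyme, had 1.46 in WT and 1.76 in MD1, and Cyp4f14 and Cyp4f37 had 1.39 and 1.37 in WT and 1.12 and 0.89 in MD1. Next to Cyp4f39, Cyp4f17 had -2.03 and -1.65 and Cyp4f16 -1.58 and -1.57. These 2 were among the 5 lowest WT values of all members. Level-matched, Cyp4f17 differed by 0.85, as autosomal genes at its level were mostly lower in MD1. The cluster's median difference was -0.09, and 0.18 centred. Of 4 zinc finger genes within it, Zfp871 (-2.78 and -4.07) and Zfp870 (-1.34 and -2.98) were at least 2-fold lower in MD1, against 20.4% of autosomal genes. Zfp799 had -2.12 and -3.11 and Zfp811 -0.19 and 0.43. The values of these 4 genes were not level-matched, and autosomal genes of low level were mostly lower in MD1. Of the CYP4 genes outside the clusters, Cyp4v3 had -0.40 and -0.95 and Cyp4f18 0.97 and 0.69.

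**Figure D4:**
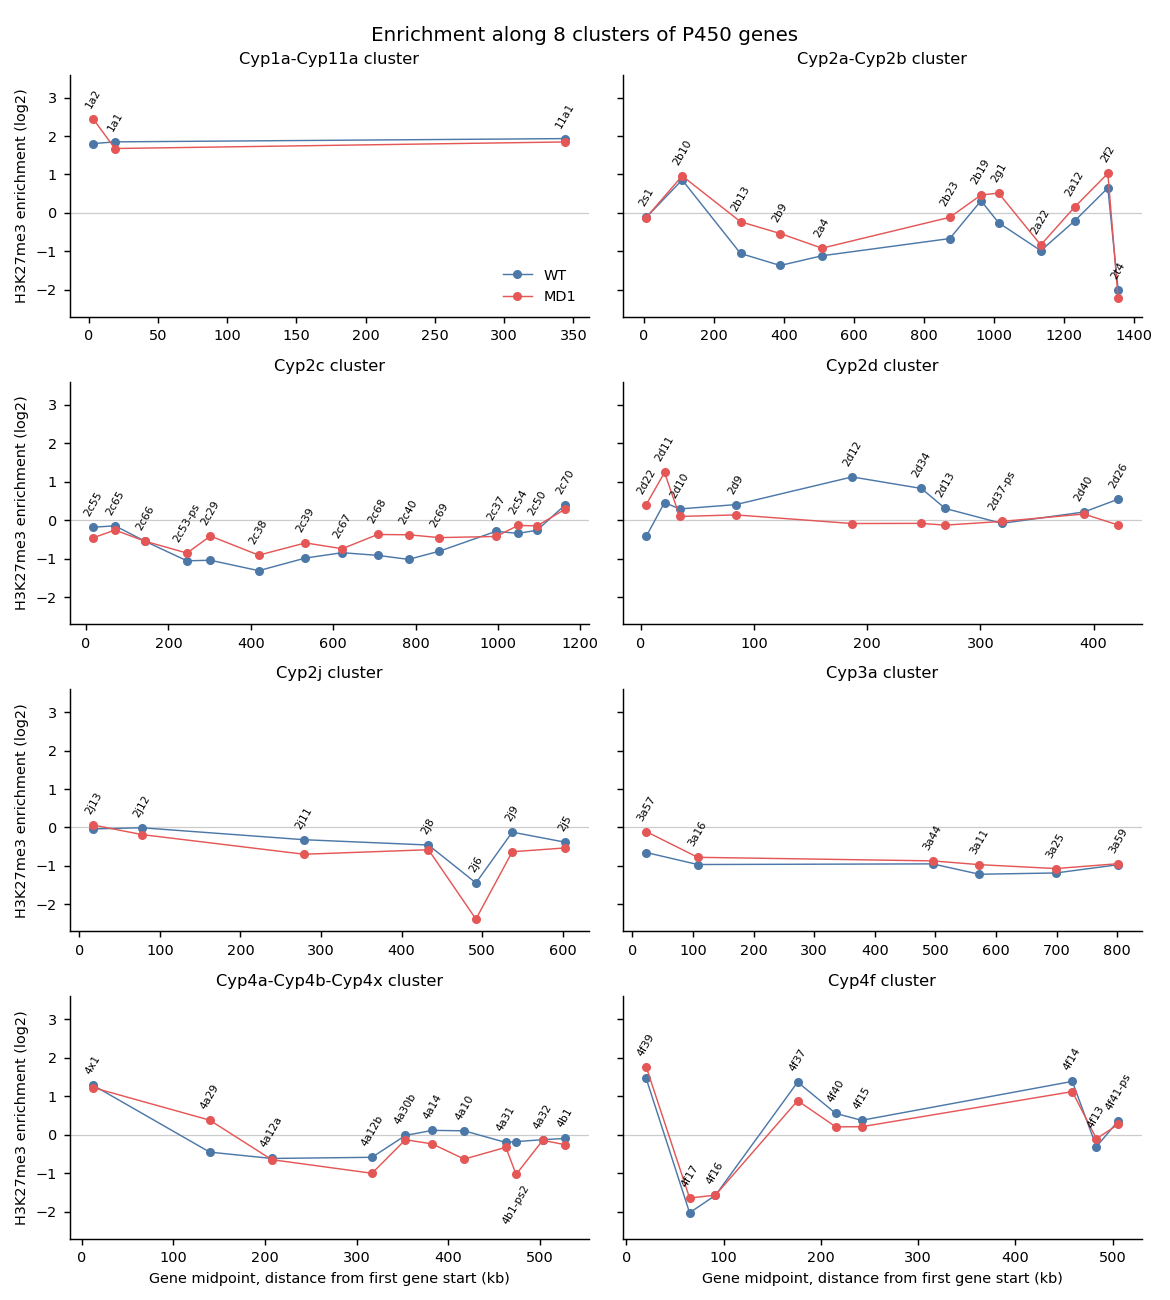
WT (blue) and MD1 (red) H3K27me3 enrichment (y axis, log2) of each P450 gene with both values, placed by its midpoint along its cluster (x axis, kb from the start of the first gene); lines join neighbours, and labels leave out the prefix Cyp. MD1 lies above WT through the middle of the Cyp2c cluster and at all 6 Cyp3a genes, and in the Cyp2d cluster the first 2 genes are above and most others below.

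Across the 8 clusters, median differences ran from -0.23 (Cyp2d) to 0.28 (Cyp2a-Cyp2b). The Cyp2a-Cyp2b, Cyp2c and Cyp3a medians were positive as deposited, centred and level-matched. The Cyp2d, Cyp2j, Cyp4a-Cyp4b-Cyp4x, Cyp4f and Cyp1a-Cyp11a medians were negative as deposited and level-matched but positive after centring (0.04 to 0.18). Differences between the clusters could not be tested. The 64 flanking genes, 8 per cluster, had a WT median of -1.69 and an MD1 median of -2.0. Their differences had a median of -0.58, and 20 passed 2-fold downwards and 2 upwards, against 20.4% and 1.61% of all autosomal genes. By cluster, the median flank difference was -1.24 at Cyp3a, -1.22 at Cyp2a-Cyp2b, -0.92 at Cyp2c, -0.78 at Cyp4a-Cyp4b-Cyp4x and -0.72 at Cyp2d. At Cyp2j it was -0.27, at Cyp4f -0.22 and at Cyp1a-Cyp11a 0.24, where 2 of 8 flanking genes were lower in MD1. The clusters and their flanks also differ in level, and autosomal genes of low level were lower in MD1 as a rule. When MD1 values were regressed on WT values, the slope was 1.25 across autosomal genes and 0.93 across the members. The WT values behind these slopes ran from -5.91 to 4.31 and from -2.40 to 2.33. No slope was fitted over autosomal genes in the range of the members.

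**Figure D5:**
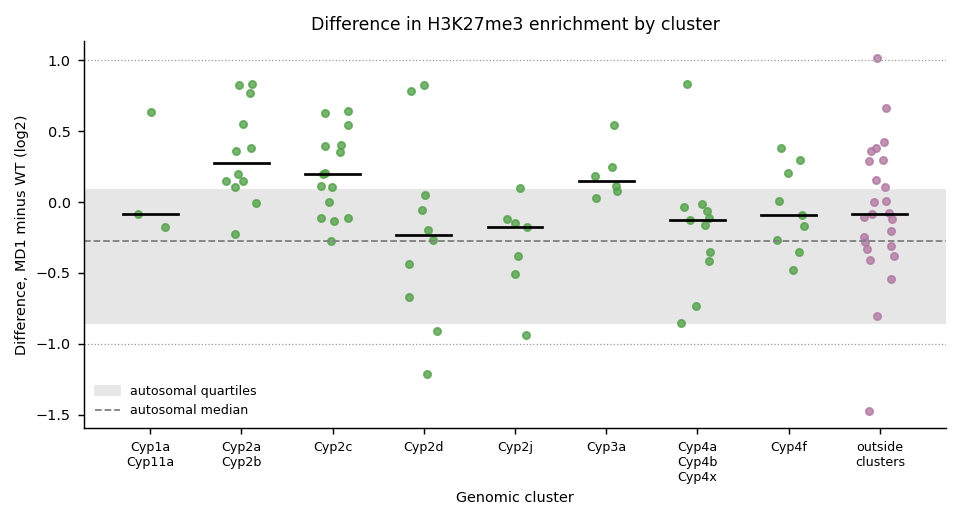
Difference in H3K27me3 enrichment, MD1 minus WT (y axis, log2), for each P450 gene by genomic cluster (x axis), with bars at the median; points are spread sideways at random for clarity. The grey band and dashed line are the autosomal quartiles and median (-0.27), dotted lines mark 2-fold; cluster medians lie between -0.23 and 0.28 and only 3 genes lie on or past the dotted lines.

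Genes that work with P450 enzymes were spread over the whole range of levels. Electron donors, which supply reducing power to most P450 enzymes, had medians of -2.37 in WT and -2.52 in MD1 over 7 genes with values. Fdxr, the reductase gene of the mitochondrial chain, stood apart, at 0.53 and 0.50. Of the 7, 4 were at least 2-fold lower (Cyb5b, Cyb5r3, Fdx1 and Fdx1l), against 20.4% of autosomal genes. Level-matched none was, against 3.41%, and the differences of Cyb5b, Cyb5r3 and Fdx1l turned positive (0.10, 0.50 and 0.07). Por, the reductase gene on which microsomal P450 enzymes depend, had -2.37 and -2.43. Of 14 regulators of P450 genes, 12 had a WT value above 0 (85.7%, against 35.6% of autosomal genes) and the median was 0.49. The hepatic receptor genes Nr1i2 and Nr1i3 had 1.0 and 0.56 in WT and 0.74 and 0.64 in MD1, and Hnf4a, encoding a hepatocyte transcription factor, 1.64 and 1.48. Rxra, the gene of the common partner of the Nr1i2 and Nr1i3 receptors, had -1.40 and -1.67. Of the 14, 2 were called lower (Ahr and Arnt, above) and none higher, against 20.4% and 1.61% of autosomal genes. Of 3 further P450 genes whose symbols do not match the pattern, Cyp51, the broadly expressed cholesterol synthesis enzyme, went from -2.14 to -4.80. Its MD1 ratio was 4 to 109 and its level-matched difference -1.25. Ptgis and Tbxas1, the prostacyclin and thromboxane synthases, went from 0.66 to 1.42 and from 0.15 to 0.66.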

How the data were processed

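H3K27me3 ChIP-seq was summarised by the authors in 1 table of log2 enrichments per gene, with 1 deposited column for WT and 1 for MD1; the build is mm9 per the submitters' processing notes. The sources used here do not name the aligner, the counting, any filter or what the enrichment was divided by. The file's starts were raised by 1 so that positions count from 1. Nearly all values (99.98% in WT, 99.95% in MD1, relative tolerance 1e-12) equalled a constant per column plus log2 of one whole number over another, both up to 20000, from which ratios in lowest terms were taken; read depth remains unknown. Differences, medians and counts were computed with Python 3.11.15, numpy 2.4.6 and pandas 2.3.3. On simulated data with planted shifts, matching on the WT value was held to set limits. Matching on mean level, called level-matched here, was run on them but not held to a limit. No test was possible with 1 library of each kind. Named members were those of the role lists of at most 8 genes, the 5 highest and lowest in WT value and difference, and the extremes of each cluster; other genes given were chosen after their values were seen. The members Cyp21a1 and Cyp2a5, had a value in WT alone, and 2 others had none. Promoters and their coordinates are RefSeq GRCm38.p6, matched by symbol for 75 of 102 members. Members and lists were chosen with earlier results of these data known. Alternatives tried were pseudocounts, a filter on low levels, centring, matching on mean level or WT value, a minimum denominator of 20, other limits, means, other cluster gaps, and leaving out overlapping genes or pseudogenes or adding 3 P450 genes. With no replicates, an alternative counted as a change when it moved a single gene's value by more than the SD among like genes, a median by more than the SD of the differences in its list, or a count by more than 1.5 times.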

Additional observations from a re-analysis of the deposited data

How the results depend on the processing

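No paired analysis was possible because each genotype had 1 library of each kind. The differences of Cyp26a1, Cyp8b1 and Cyp2d12 kept their sign under every alternative run. Over all named members, 21 recomputed differences moved beyond the stated limit and 293 did not. With a pseudocount of 1, Cyp2b9 fell from 0.83 to 0.28, Cyp2b13 from 0.83 to 0.32, and Cyp2d22 and Cyp4a29 from 0.83 to 0.41. Cyp2c40 fell from 0.64 to 0.24 and Cyp3a57 from 0.54 to 0.24. Matched on the WT value, Cyp4f17 rose from 0.38 to 1.22. As deposited, 2 members were at least 2-fold lower and 1 higher. These became 1 and 0 with a pseudocount of 1, 1 and 7 after centring, 8 and 11 at a limit of 1.5-fold and 0 and 0 at 3-fold. With denominators of at least 20, which 78 members have, 0 were lower, since Cyp8b1 and Cyp2d12 fall below that minimum. The ratios are in lowest terms, so this minimum is not one of read number and can also drop genes with many reads. Matched on mean level 0 were higher, and matched on the WT value 4. The median difference of the Cyp3a cluster, 0.15, was 0.42 after centring and 0.37 matched on the WT value, and that of all CYP3 genes, 0.11, was 0.39 and 0.37. The other 196 recomputed medians and counts stayed within the stated limits, but some changed sign. After centring, the 5 negative cluster medians turned positive, Cyp2d at -0.23 included. With means for medians, the Cyp1a-Cyp11a cluster turned from -0.09 to 0.13, the CYP1 list from -0.11 to 0.12, the bile acid list from 0.00 to -0.20 and the vitamin D list from -0.08 to 0.02. The vitamin D median was also 0.02 matched on mean level, 0.03 matched on the WT value and 0.15 without Cyp24a1, the overlapping gene. The median over all members, -0.01, was 0.06 and 0.07 when matched in these 2 ways. The Cyp2d median was -0.55 with denominators of at least 20, which left Cyp2d10 and Cyp2d34 alone. Depth is unknown, so values from small ratios, such as those of Cyp8b1 and the Cyp2d genes, carry an error that cannot be stated.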

Other observations

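Conjugating enzymes, which act on the products of P450 enzymes, had values much like the P450 genes. The 47 of 49 listed glutathione S-transferase, sulfotransferase and UDP-glucuronosyltransferase genes with both values had a WT median of -0.14 and an MD1 median of -0.31, and their differences had a median of 0.12. None was at least 2-fold lower, against 20.4% of autosomal genes. A 2-fold higher value was seen at 1 (2.13%, against 1.61%), Sult2a6, from -1.74 to -0.59. The neighbouring steroid sulfotransferase genes Sult2a1, Sult2a3, Sult2a4, Sult2a5 and Sult2a7 were also higher in MD1, by 0.76, 0.48, 0.69, 0.37 and 0.65. These 6 genes had WT values from -1.74 to -1.25, and the array was picked after its values were seen. In the Ugt2 genes the lowest difference was at Ugt2b38, from 0.02 to -0.94.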
